A study of Mus musculus and Homo sapiens with 15 samples.

Results

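Collagen chain genes were examined in the thymus of mice with p53-mutant T-cell lymphoma, in grafted tumours and in a human myeloid cell line, each with and without arsenic trioxide (ATO). Members were all genes whose symbol is "Col", a number, "a" and a number, whatever the case. This rule found 44 genes among the 52340 of the W/W table, 44 among the 56691 of the C57 table and 44 among the 61806 of the U937 table. No expression value entered the rule.

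The study compared transcriptomes of T-lymphomas with and without ATO. The 9 W/W samples are thymus taken at day 150 after birth from mice homozygous for the p53 R282W mutation with T-lymphomas. Of these samples, 3 are labelled as given water, 3 as given ATO with tumours in progression, and 3 as given ATO and regressing. The outcome defines the ATO groups, so ATO and outcome cannot be told apart in a comparison with water, and no wild-type or untreated regressing group was analysed here. The 4 grafts are labelled as a CDX model (a cell-line graft) in wild-type C57 mice, 2 given PBS and 2 given ATO. The labels do not name the grafted cells, so host and graft RNA cannot be told apart. U937, a human myeloid leukaemia line labelled as expressing p53 R282W, gave 1 library with PBS and 1 with ATO. No label says whether replicates are separate animals, so p-values measure only the spread between these libraries.

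Collagens are secreted proteins in which 3 chains wind into a triple helix. Fibrillar chains build the fibres that give connective tissue its strength, basement membrane chains build the sheet under epithelium and around vessels, and collagen VI forms beaded filaments near cells. In the thymus this matrix is made mostly by fibroblasts, pericytes and other stroma, and T cells move along it.

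Counts assigned to genes ranged from 12800367 to 17550594 in W/W libraries, from 12922147 to 15637644 in grafts, and were 17872972 (PBS) and 16454534 (ATO) in U937. Levels are given in CPM (counts scaled to a common library size after edgeR's TMM scaling). Water replicate 2 and progressing replicate 2 stood apart with the lowest TMM factors, 0.747 and 0.794. Mitochondrial reads were highest in progressing replicate 2 (8.83%) and regressing replicate 3 (8.48%) among W/W libraries, and were 0.521% and 1.02% in PBS grafts against 5.98% and 4.03% in ATO grafts. Thymocyte and T cell markers summed to 1498 to 1916 CPM in water, 2651 to 3392 in progressing and 3905 to 6949 in regressing samples. Thymic epithelial markers reached 221 to 1163 CPM, 95.1 to 147 and 1497 to 1716 in the same groups, and 44.6 to 60.4 in grafts.

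Among W/W samples, summed collagen reads were highest in progressing tumours and lowest in regressing ones. The 44 genes together made 1027, 616 and 1579 CPM in water replicates 1 to 3, 1475, 2398 and 2034 in progressing replicates, and 411, 325 and 763 in regressing replicates. The progressing and regressing groups did not overlap, while water overlapped both. Col27a1 alone supplied much of the progressing level: without it the mean was 1487 ± 410 CPM (SD, n = 3), against 1969 ± 465 with it. PBS grafts held 938 and 690 CPM and ATO grafts 1692 and 2823, again without overlap. In bulk tissue, fewer cells of a type and less RNA per cell cannot be told apart.

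The mixture of classes also shifted. Per kilobase of exon, the fibrillar class took 47.2%, 38.2% and 45.5% of collagen signal in water, 71.8%, 71.2% and 60.2% in progressing and 31.1%, 32.0% and 27.2% in regressing samples. These ranges did not overlap. Beaded filament chains took 24.6% ± 3.99 (SD, n = 3) in water, 6.71% ± 0.997 in progressing and 23.9% ± 9.75 in regressing samples. Basement membrane chains kept a narrower band, 23.6% ± 7.33, 21.1% ± 6.45 and 29.4% ± 2.27. Graft fibrillar shares were 63.6% and 58.5% with PBS and 60.5% and 66.8% with ATO, so these groups overlapped. With the longest coding transcript as the length, fibrillar shares rose to 50.7%, 74.7% and 35.1% in the W/W groups, in the same order. No test was run on these shares.

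**Figure D1:**
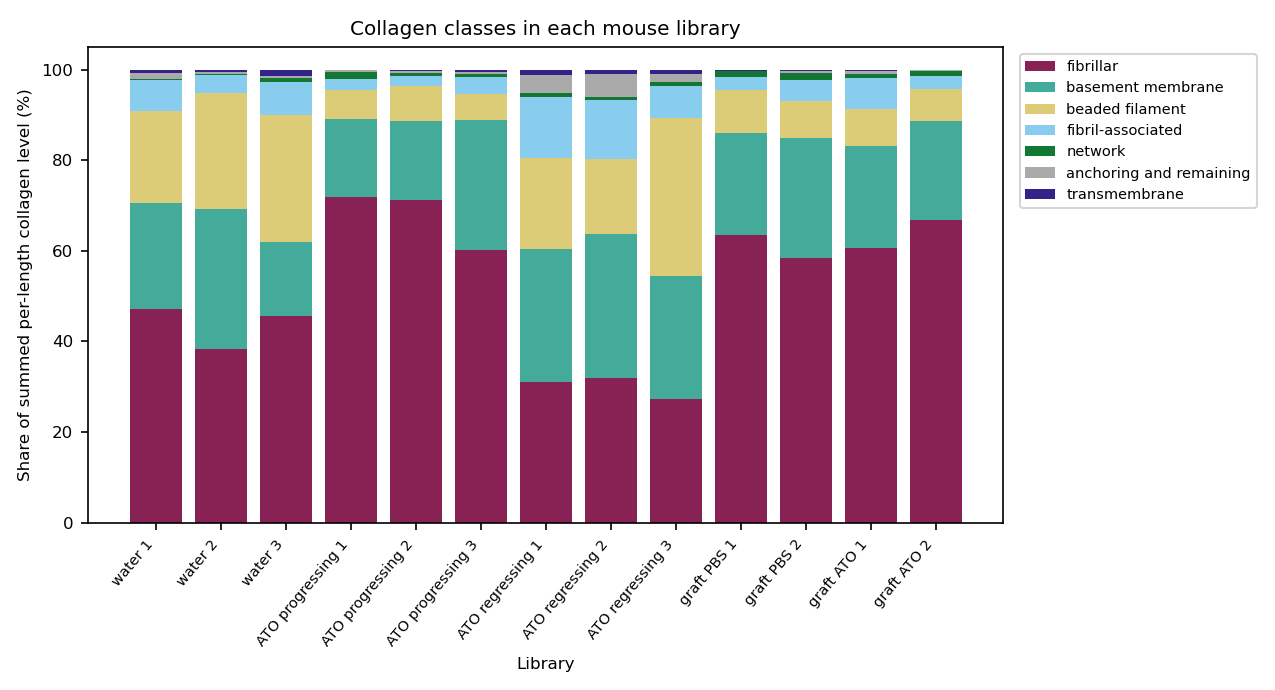
Share of the summed per-length collagen level (y axis, percent; level in CPM per exonic kilobase) held by each of 7 collagen classes in each of 13 mouse libraries (x axis); each bar is 1 library and its segments add to 100. The fibrillar segment fills 60.2% to 71.8% of the progressing bars and 27.2% to 32.0% of the regressing bars.

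The leading chains differed by group on the per-length scale (CPM per exonic kilobase). In water, Col3a1 led at 24.5 ± 16.1 (SD, n = 3). Next came Col6a1 at 19.4 ± 11.1, Col4a1 at 14.3 ± 2.32 and Col1a1 at 11.8 ± 5.74. The gap between neighbours was below the larger SD of each pair. That SD is a spread between libraries and leaves aside that the chains were measured in the same libraries. In progressing samples the order was Col3a1 at 45.0 ± 18.0, Col27a1 at 37.0 ± 4.38 and Col1a1 at 28.5 ± 9.93. Regressing samples were led by Col6a1 at 10.9 ± 8.84, Col4a1 at 6.60 ± 3.63, Col4a2 at 5.50 ± 2.46 and Col11a2 at 5.28 ± 1.12, with Col3a1 at 3.71 ± 3.07. Here too, the gaps lay within that SD, although Col4a1 exceeded Col4a2 in every regressing library (ratio 1.07 to 1.29). PBS grafts (n = 2) were led by Col27a1 at 14.1 ± 3.49 and Col3a1 at 13.6 ± 5.77, and ATO grafts by Col1a1 at 53.9 ± 36.5 and Col3a1 at 40.4 ± 31.0. These orders depend on the length used. With the longest coding transcript, the mean ratio of Col3a1 to Col1a1 in ATO grafts went from 0.718 to 1.15. That of Col1a1 to Col1a2 went from 1.29 to 0.615 in water and from 1.41 to 0.672 in progressing samples.

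Differences were tested with edgeR's quasi-likelihood test and Benjamini-Hochberg adjustment over all genes, at an adjusted p under 0.05. Of the 44 members, 37 passed the filter on low counts in W/W libraries. The other 7 (Col4a3, Col9a2, Col10a1, Col13a1, Col19a1, Col22a1 and Col25a1) had at most 58 reads in any library. The filter keeps a gene that is high in any 1 group, so counts over the tested members are a description. Regressing against water, 4 collagen genes were lower, against 4.57% of all genes, and 0 were higher, against 3.13%. At an unadjusted p under 0.05 there were 14, against 28.0% of all genes, and DESeq2 called 1 higher, against 8.16%, and 8 lower, against 10.4%. The median log2 fold change was -0.90 over the 37 and -0.11 over all 18119 genes tested. Progressing against water, 1 was higher, against 4.77% of all genes, and 1 lower, against 7.13%, with medians of 0.13 and -0.04. Regressing against progressing, 8 were lower, against 6.18% of all genes, and 1 higher, against 6.45%, with medians of -0.49 and -0.07. All 3 comparisons share samples, so their counts are not independent.

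Single libraries decided several of these counts. The 4 lower genes of regressing against water became 2 without water replicate 1, 6 calls without water replicate 2, 1 without water replicate 3, and 0 without regressing replicate 1 or 2. The 2 calls of progressing against water became 1 without water replicate 1 or progressing replicate 3 and 4 without water replicate 2. The 9 calls of regressing against progressing became 5 without progressing replicate 2 or 3, 0 without regressing replicate 1, 2 without regressing replicate 2 and 4 without regressing replicate 3. Over all genes, the regressing against water calls fell from 1396 to 86 and 60 without regressing replicates 1 and 2. Those of regressing against progressing fell from 2289 to 1362 and 531 without progressing replicates 2 and 3. Without regressing replicates 1, 2 and 3 they were 177, 312 and 549. Those of progressing against water went from 2157 to 1356 without water replicate 1, 907 without progressing replicate 3 and 2557 without water replicate 2.

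**Figure D2:**
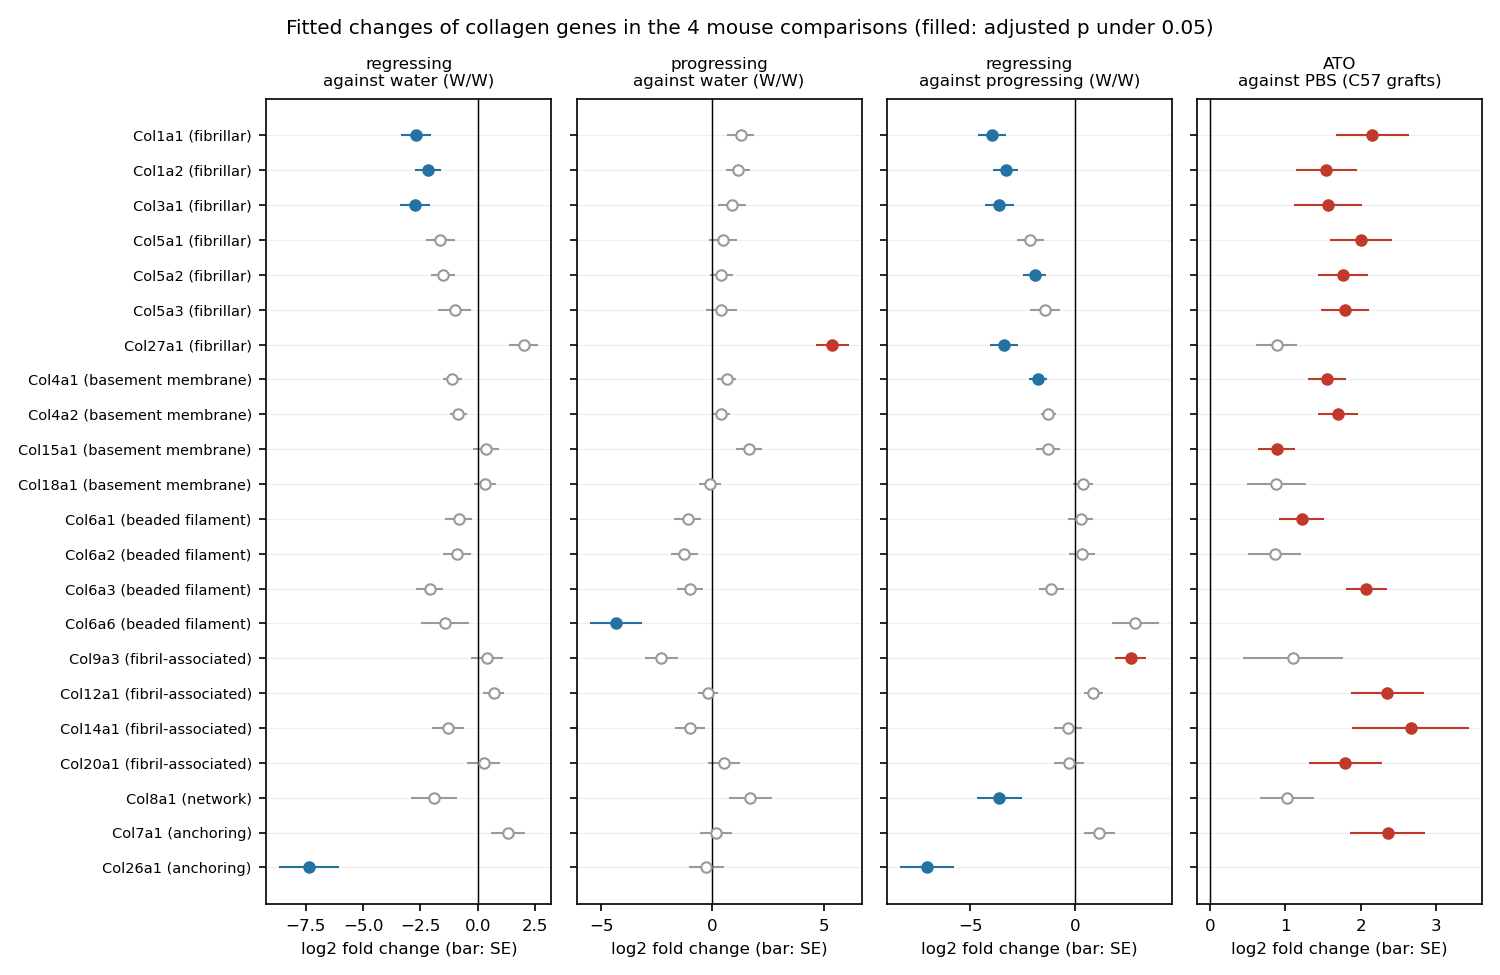
Fitted log2 fold changes (x axis; bars are the standard error) of 22 collagen genes (y axis) in the 4 mouse comparisons, 1 panel each; filled points have an adjusted p under 0.05 and open points do not. Col1a1, Col1a2 and Col3a1 are filled below 0 in both panels with regressing samples and filled above 0 in grafts. The fitted value of Col26a1, which had 0 reads in every regressing library, depends on the prior count and is no size of change.

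Collagens I and III, the main fibre-forming collagens of soft tissue, were lower in regressing thymus than in both other W/W groups. Col1a1 (GRCm38 chr11:94936224-94953042, plus strand), the alpha 1 chain of collagen I, stood at 75.8, 40.6 and 116 CPM in water, 113, 233 and 217 in progressing, and 7.47, 4.16 and 24.5 in regressing samples. Every regressing library lay below every other W/W library, and water and progressing touched. Col1a2, its partner chain, stood at 108, 64.4 and 162 CPM, then 183, 296 and 260, then 14.0, 11.6 and 48.7. Col3a1 (GRCm38 chr1:45311538-45349706, plus strand), the single chain of collagen III, stood at 179, 121 and 420 CPM, then 331, 645 and 349, then 24.0, 14.4 and 70.7. For both genes the regressing libraries again lay lowest, with replicate 3 the highest of them.

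Against water, Col1a1 was lower by a log2 fold change of -2.68 (SE 0.65, adjusted p = 0.0351 by edgeR's quasi-likelihood test), Col3a1 by -2.73 (SE 0.65, adjusted p = 0.0351) and Col1a2 by -2.17 (SE 0.56, adjusted p = 0.0431). Against progressing tumours the log2 fold changes were -3.96 for Col1a1 (SE 0.68, adjusted p = 0.0119), -3.31 for Col1a2 (SE 0.59, adjusted p = 0.0129) and -3.60 for Col3a1 (SE 0.68, adjusted p = 0.0155). Progressing against water, none of the 3 passed: Col1a1 had 1.27 (SE 0.61, adjusted p = 0.201), Col1a2 1.14 (SE 0.54, adjusted p = 0.196) and Col3a1 0.88 (SE 0.62, adjusted p = 0.381). The calls against water were the less stable. All 3 were lost with only the compared groups fitted (0.0560 for Col1a1, 0.0546 for Col3a1 and 0.0677 for Col1a2), and that of Col1a2 also with library totals alone as the scale (0.0557). Col1a1 passed no longer without water replicate 1 (adjusted p = 0.0537), water replicate 3 (0.0687), regressing replicate 1 (0.151) or regressing replicate 2 (0.137), and Col3a1 no longer without water replicate 3 (0.0725), regressing replicate 1 (0.151) or 2 (0.146). Col1a2 lost its call without any 1 water replicate (0.0516 to 0.0880) and without regressing replicate 1 (0.173) or 2 (0.177). Against progressing tumours, Col1a1 (0.0572) and Col1a2 (0.0596) lost theirs without regressing replicate 1, and Col3a1 without regressing replicate 1 (0.0696) or 2 (0.0542).

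Markers of fibroblasts, the usual source of these chains, were not lower in regressing samples. The 11 markers (Pdgfra, Pi16, Dpt and others) summed to 189, 113 and 214 CPM in water, 225, 376 and 158 in progressing, and 230, 238 and 550 in regressing samples. All 11 had reads in most libraries; Twist2 was at 0 in water replicate 2 and regressing replicates 1 and 2, and Tcf21 in water replicate 2. Of the 9 tested, 2 were higher in regressing than in water and 0 lower. These were Pi16 (log2 fold change 3.51) and Medag (2.56), both lost without regressing replicate 1 or 2. Regressing against progressing, 0 of 9 passed. Progressing against water, 2 of 9 were higher as well and 0 lower: Medag, kept in all 13 alternatives, and Mfap5, lost in 7. The collagen I and III genes together made 1.92 to 3.26 CPM per fibroblast marker CPM in water, 2.79 to 5.23 in progressing and 0.127 to 0.262 in regressing samples. Markers of pericytes and smooth muscle, which also make collagen, summed to 175, 258 and 456 CPM in water, 180, 224 and 331 in progressing, and 90.4, 76.7 and 241 in regressing samples, with 0 of 10 past the test in any W/W comparison. Other cell types differed between the groups as well. Adipocyte markers summed to 97.6 to 170 CPM in water, 164 to 1535 in progressing and 231 to 5820 in regressing samples, with 3 of 10 higher in regressing than in water. B cell markers summed to 291 to 3755 CPM in water, 8.92 to 92.5 in progressing and 151 to 231 in regressing samples, with 7 of 10 lower in progressing than in water and 1 of 10 lower in regressing. Macrophage markers summed to 1738 to 2560, 312 to 1463 and 569 to 992 CPM, with 1 of 10 lower in progressing than in water and 0 of 10 past the test in regressing against water. Endothelial markers summed to 113 to 183, 140 to 292 and 148 to 334 CPM, with 0 of 10 past the test in any W/W comparison. The part of these cell types in the collagen values was not tested.

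**Figure D3:**
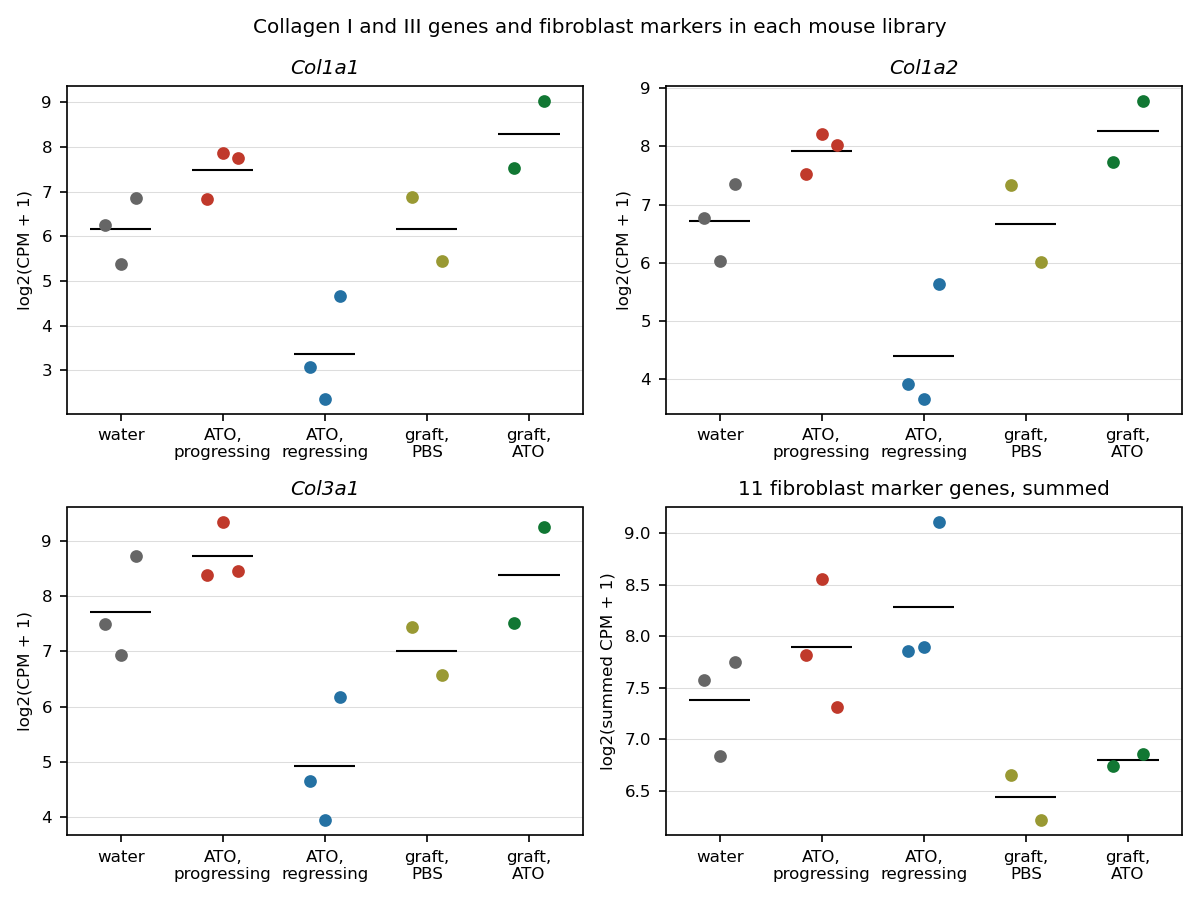
Level of Col1a1, Col1a2, Col3a1 and the sum of 11 fibroblast marker genes (y axis, log2 of CPM + 1) in 13 mouse libraries by group (x axis); points are libraries and bars group means. The regressing points lie lowest in all 3 collagen panels, while the marker sum of regressing libraries, 230 to 550 CPM, lies above all 3 water libraries.

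Upstream sequences of the chains that moved were taken from RefSeq on GRCm38.p6, as the 250 bases before the annotated start, to show what lies there. Windows were found for 35 of the 44 members and searched on both strands for the TATA box TATAAA, for the CCAAT box, for the GC box GGGCGG and for the RUNX-type motif TGTGGT. The GC box occurred in 21 members, the CCAAT box in 13, the TATA box in 5 and the RUNX-type motif in 3, against 32.7%, 33.8%, 12.4% and 14.0% of 32851 mouse windows of the same length. Col3a1, Col27a1 and Col8a1 are shown because their levels separated regressing from progressing tumours while their windows held different motifs; capitals mark matches, on either strand, and no printed matches overlap. Positions count back from -1, the base before the start. Col3a1 (chr1:45311288-45311537, plus strand) holds a TATA box beginning at -117, Col27a1 (chr4:63215162-63215411, plus strand) a GC box at -85, and Col8a1 (chr16:57754738-57754987, minus strand) GC boxes at -170, -73, -66 and -23 and the RUNX-type motif at -230.
Col3a1: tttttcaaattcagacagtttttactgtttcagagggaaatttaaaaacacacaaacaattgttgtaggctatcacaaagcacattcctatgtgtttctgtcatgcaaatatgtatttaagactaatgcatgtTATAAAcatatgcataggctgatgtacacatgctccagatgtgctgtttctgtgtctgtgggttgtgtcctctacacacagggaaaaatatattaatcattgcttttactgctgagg
Col27a1: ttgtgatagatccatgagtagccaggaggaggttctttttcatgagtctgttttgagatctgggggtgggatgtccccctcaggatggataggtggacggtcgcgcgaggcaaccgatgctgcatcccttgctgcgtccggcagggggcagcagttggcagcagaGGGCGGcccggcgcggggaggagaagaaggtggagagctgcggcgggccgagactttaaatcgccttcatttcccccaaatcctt
Col8a1: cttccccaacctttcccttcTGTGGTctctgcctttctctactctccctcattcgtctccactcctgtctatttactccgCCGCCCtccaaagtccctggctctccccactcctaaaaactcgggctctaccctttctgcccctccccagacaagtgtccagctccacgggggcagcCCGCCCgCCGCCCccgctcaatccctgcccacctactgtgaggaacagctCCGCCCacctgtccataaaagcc
These 3 windows were chosen to differ in motifs, so the lack of a motif common to all 3 is no result. Col27a1 and Col8a1 both hold a GC box. A match is a string of letters only. The RefSeq start of Col27a1 lies inside the gene body of the W/W table, which begins at 63214004.

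Col27a1, a fibrillar chain known mainly from cartilage, had the largest fitted change of any collagen gene in progressing against water. The gene (GRCm38 chr4:63214004-63334991, plus strand) had 225, 20 and 299 reads in water, 6997, 6436 and 6440 in progressing, and 744, 589 and 773 in regressing samples. On the CPM scale this was 14.5, 1.53 and 18.4, then 430, 543 and 472, then 46.0, 41.5 and 50.9. The 3 groups did not overlap, and water replicate 2 lay far below the other water libraries. Progressing tumours exceeded water by a log2 fold change of 5.39 (SE 0.74, adjusted p = 0.00291 by edgeR's quasi-likelihood test), and the call held in all 13 alternatives. Regressing against progressing, it was -3.39 (SE 0.67, adjusted p = 0.0173), lost without regressing replicate 1 (0.0735), 2 (0.0705) or 3 (0.0564). Regressing against water, it was 2.00 (SE 0.64, adjusted p = 0.0757), not called, though it passed with DESeq2 (0.0151), limma-voom (0.0412), no filter and without water replicate 2 (0.0181).

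The genes beside Col27a1 were looked at after its values were seen. Within 200 kb the W/W table lists 11 genes, of which 9 were tested. Progressing against water, 4 were higher, against 4.77% of all genes, and 1 lower, against 7.13%. Whrn, a scaffold protein of hair cells 79919 bases downstream, stood at 15.6, 7.70 and 10.6 CPM in water, 136, 95.8 and 67.5 in progressing and 102, 107 and 56.3 in regressing samples. Both ATO groups lay above water. Its log2 fold changes were 3.14 (SE 0.42, adjusted p = 0.00261) and 2.96 (SE 0.41, adjusted p = 0.00681), each kept in all 13 alternatives. Zfp618, 74296 bases upstream, was higher by 3.86 in progressing than in water (SE 0.83, adjusted p = 0.0163). Its call and that of Orm3 (3.70, SE 0.79, adjusted p = 0.0165), a plasma protein gene whose reads may be split with Orm1 and Orm2, were lost without water replicate 1 and without progressing replicate 3, at adjusted p up to 0.0590 and 0.0526. Ambp, a plasma protein precursor, was higher by 4.52 (adjusted p = 0.0468) and Akna, a transcription factor of lymphocytes, lower by -1.39 (adjusted p = 0.0342), each lost in 7 of 13 alternatives. Akna, 32134 bases downstream, lies nearer to Col27a1 than Whrn. It stood at 38.7, 54.1 and 96.6 CPM in progressing against 137 to 188 in water. No cause shared by the neighbours was tested. Regressing against progressing, 1 neighbour was higher, against 6.45% of all genes, and 3 lower, against 6.18%. Mir455, inside Col27a1, had 0 reads in every W/W library.

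**Figure D4:**
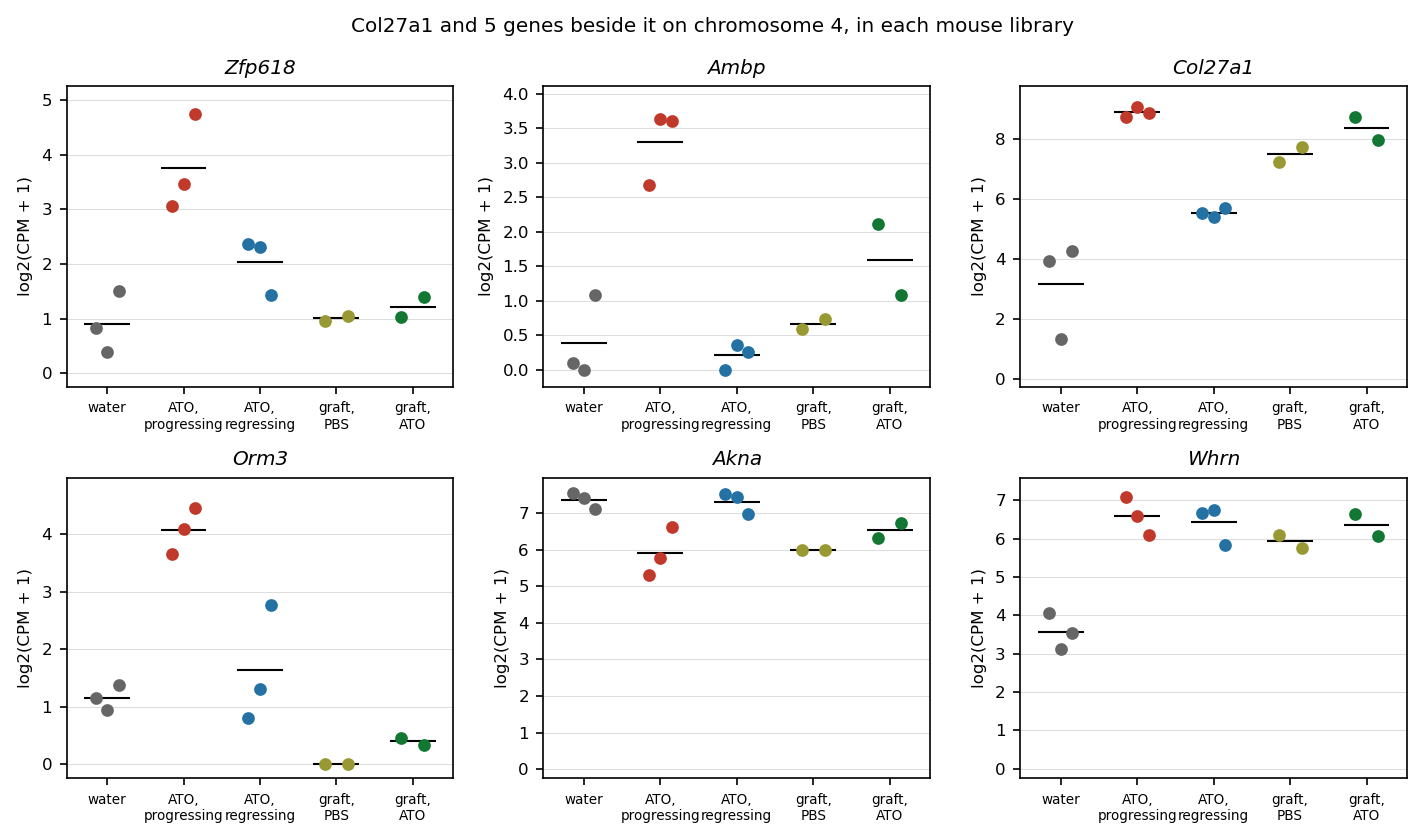
Level (y axis, log2 of CPM + 1) of Col27a1 and 5 neighbouring genes on chromosome 4, in 13 mouse libraries by group (x axis); points are libraries and bars group means. Progressing libraries of Col27a1 lie at 430 to 543 CPM and those of water at 1.53 to 18.4 CPM, while Akna lies lower in progressing than in water.

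The fibrillar class holds collagens I and III, Col27a1 and 8 other chains that were tested. The class had 11 members tested. Regressing against water, 3 were lower, against 4.57% of all genes (median log2 fold change -1.81, or -1.77 with genes at the count floor set to their bound). Regressing against progressing, 5 were lower, against 6.18% of all genes (median -2.95, or -2.65). The 3 were Col1a1, Col1a2 and Col3a1, and the 5 were these with Col5a2 and Col27a1. Progressing against water, only Col27a1 passed, against 4.77% of all genes higher. There, 10 of the 11 had a positive log2 fold change and the median was 0.88. Col5a2, a chain of the collagen V that nucleates collagen I fibres, stood at 42.9, 16.0 and 71.9 CPM in water, 58.6, 65.4 and 49.8 in progressing and 14.7, 8.18 and 23.0 in regressing samples. Regressing libraries lay below all progressing ones and overlapped water. Its log2 fold change against progressing was -1.92 (SE 0.54, adjusted p = 0.0432 by edgeR's quasi-likelihood test), lost when any 1 progressing or regressing replicate was left out (0.0696 to 0.147) or with library totals alone (0.0796), and -1.51 against water (adjusted p = 0.0978). Its partner Col5a1 had -2.12 (adjusted p = 0.0533) and -1.64 (adjusted p = 0.121). Col5a2 lies 24614 bases from Col3a1, tail to tail. Progressing against water, Col5a1 had 0.48 (adjusted p = 0.662) and Col5a2 0.41 (adjusted p = 0.657). Col11a1, a cartilage chain, had 0 reads in every regressing library and was at least 6.26-fold below progressing, counting 3 reads per library as the floor (adjusted p = 0.0574).

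Among basement membrane chains, Col4a1 was lower in regressing than in progressing tumours. Col4a1 and Col4a2, which assemble into the common collagen IV and start head to head on chromosome 8 with 22 bases of overlap, were lowest in 2 regressing libraries. Col4a1 stood at 118, 86.9 and 115 CPM in water, 104, 158 and 238 in progressing and 37.3, 30.3 and 80.3 in regressing samples, so the regressing group lay below both others. Its log2 fold change was -1.76 against progressing (SE 0.43, adjusted p = 0.0292 by edgeR's quasi-likelihood test) and -1.12 against water (SE 0.42, adjusted p = 0.116). The call was lost without progressing replicate 2 (0.0560) or 3 (0.0914) and without regressing replicate 1 (0.123) or 2 (0.114). Col4a2 stood at 71.3, 51.0 and 74.3 CPM, then 58.8, 92.9 and 109, then 29.0, 25.2 and 55.1, with -1.26 against progressing (adjusted p = 0.0523) and -0.85 against water (adjusted p = 0.169). Progressing against water, Col4a1 had 0.64 (adjusted p = 0.345) and Col4a2 0.41 (adjusted p = 0.512). Per length, Col4a1 relative to Col1a1 was 1.38 in water, 0.792 in progressing and 4.56 in regressing samples.

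Col15a1 and Col18a1, the vessel-associated chains whose ends give endostatin-like fragments, passed in no W/W comparison. Col15a1 stood at 15.5, 20.8 and 12.7 CPM in water, 14.5, 54.3 and 85.4 in progressing and 15.8, 15.2 and 31.7 in regressing samples, with all groups overlapping. Its log2 fold change was 1.65 progressing against water (adjusted p = 0.0897), 0.35 regressing against water (adjusted p = 0.717) and -1.30 regressing against progressing (adjusted p = 0.150). Col18a1 lay between 6.09 and 21.1 CPM in all 9 libraries, with log2 fold changes of -0.10, 0.31 and 0.41 in the same order (adjusted p = 0.918, 0.702 and 0.582). The sign of the first turned without water replicate 3 (0.08) and without progressing replicate 1 (0.25). Of the 7 members tested in this class, only Col4a1 passed in any W/W comparison.

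Collagen VI chains had lower fitted levels in progressing than in water, and of these only Col6a6 passed. Col6a1 stood at 60.8, 53.5 and 141 CPM in water, 26.4, 57.8 and 33.7 in progressing and 31.6, 19.8 and 92.0 in regressing samples. Col6a2, which pairs with it in the collagen VI monomer, stood at 49.7, 52.5 and 111 CPM, then 21.3, 42.3 and 25.9, then 22.5, 13.2 and 79.0. Progressing and water did not overlap for Col6a2 and did for Col6a1. Progressing against water, the log2 fold changes were -1.12 for Col6a1 (adjusted p = 0.243), -1.26 for Col6a2 (adjusted p = 0.212) and -0.99 for Col6a3 (adjusted p = 0.297). Regressing against water they were -0.83 (adjusted p = 0.379), -0.90 (adjusted p = 0.365) and -2.11 (adjusted p = 0.0575). Regressing against progressing they were 0.28 (adjusted p = 0.772), 0.36 (adjusted p = 0.718) and -1.12 (adjusted p = 0.215). The last comparison leaned on regressing replicate 3: without it Col6a1 had -0.52 and Col6a2 -0.65. All 6 members tested of this class had a negative log2 fold change progressing against water, with a median of -1.44.

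Col6a6, a variant alpha chain of collagen VI, was the only beaded filament gene to pass in a W/W comparison. It stood at 8.82, 1.53 and 22.2 CPM in water, 0.738, 0.169 and 0.659 in progressing and 1.48, 1.20 and 9.34 in regressing samples. Progressing libraries lay below every other. Its log2 fold change progressing against water was -4.34 (SE 1.18, adjusted p = 0.0386 by edgeR's quasi-likelihood test). The call was lost in 7 of 13 alternatives, among them without water replicate 1 (0.0636) or 3 (0.111) and without progressing replicate 1 (0.0812), 2 (0.105) or 3 (0.106), with limma-voom (0.106) and with only the compared groups (0.0543).

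A few low chains separated the 2 outcomes as well. Col8a1, a short network-forming chain made by vessels, stood at 1.16, 0.534 and 9.78 CPM in water, 15.6, 9.79 and 12.2 in progressing and 0.865, 0.352 and 1.84 in regressing samples. Regressing against progressing its log2 fold change was -3.61 (SE 1.06, adjusted p = 0.0497 by edgeR's quasi-likelihood test), lost when any 1 replicate of either group was left out (0.0791 to 0.162) and with library totals alone (0.0685). Col9a3, a fibril-associated chain of cartilage, stood at 7.79, 1.30 and 7.01 CPM, then 1.11, 1.52 and 0.659, then 9.63, 5.29 and 6.12, and was the single member higher in regressing than in progressing tumours (2.67, SE 0.75, adjusted p = 0.0425, lost in the same way at 0.0697 to 0.150, with limma-voom at 0.0566 and with the replicate block at 0.0741). It shares 234 exon bases, 6.07% of its exons, with Tcfl5 on the other strand, and no source used here says that counting used strand. Col26a1, a secreted protein with collagen repeats, had 25, 15 and 23 reads in water, 9, 8 and 30 in progressing and 0 in each regressing library. It was at least 7.01-fold lower than water (adjusted p = 0.0177) and at least 5.77-fold lower than progressing (adjusted p = 0.0181), at a floor of 3 reads per library. Both calls were lost when any 1 regressing replicate was left out, at adjusted p from 0.0520 to 0.0997. Of the chains not called, Col7a1, which anchors epithelium to the dermis, stood at 14.4, 1.07 and 7.87 CPM in water, 5.84, 12.7 and 7.62 in progressing and 22.5, 21.6 and 14.7 in regressing samples.

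Genes that make, process and hold collagen were counted by list. The lists were chosen with earlier results of these data known. Regressing against water, 4 of 20 genes for collagen modification and folding were lower and 0 higher, among them Crtap, a cofactor of prolyl 3-hydroxylation (log2 fold change -1.84, adjusted p = 0.0160 by edgeR's quasi-likelihood test), Ppib, a prolyl isomerase (-1.61, adjusted p = 0.0388), and Colgalt1, a galactosyltransferase (-1.45, adjusted p = 0.0334). They lost their calls in 2, 6 and 5 of 13 alternatives, each of them without regressing replicate 1 and without regressing replicate 2. Of 15 fibrillar matrix partners 2 were lower, the microfibril gene Fbn1 (-1.96, adjusted p = 0.0445) and the proteoglycan Bgn (-2.09, adjusted p = 0.0480), lost in 7 and 6. None passed among 11 genes of procollagen processing and cross-linking, 9 collagen receptors, 12 proteases and inhibitors, 14 basement membrane partners or 14 TGF-beta pathway genes. Over all genes, 3.13% were higher and 4.57% lower.

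Progressing against water, the modification list had 2 higher and 1 lower of 20: P3h4 (2.93, adjusted p = 0.0180) and Plod2, a lysyl hydroxylase (2.93, adjusted p = 0.0213), rose, and Colgalt1 fell (-1.16). Of 11 processing genes 1 was higher, the procollagen protease Adamts14 (2.64, adjusted p = 0.0380), and 1 lower, Pcolce2 (-2.66, adjusted p = 0.0234). The other lists gave 0 of 9 receptors, 0 of 12 proteases and inhibitors, 1 lower of 15 fibrillar partners (Tnc, -1.98), 1 lower of 14 basement membrane partners (Lama3, -2.67), and 3 lower of 14 TGF-beta genes (Tgfb1 at -1.55 and Smad3 at -1.54 among them). Of these, each was lost in between 1 (P3h4 and Lama3) and 10 (Colgalt1 and Smad3) of 13 alternatives. Over all genes, 4.77% were higher and 7.13% lower.

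Regressing against progressing, Adamts14 was lower (-4.68, lost only without regressing replicate 1 among 13 alternatives), with Loxl2, a cross-linking oxidase (-2.50, lost in 5), 2 of 11 processing genes. Lama3, a laminin chain of epithelium, was 1 higher of 14 basement membrane partners (4.19, kept in all 13). Ccn2, a matricellular gene of the TGF-beta list, was lower (-3.57), and the proteases and inhibitors had 1 lower of 12, Timp1 (-3.12). The modification list had 1 higher (Colgalt2, 3.40) and 3 lower (Fkbp10 at -2.87 and P3h4 at -2.56 among them) of 20, and fibrillar partners 2 higher (Tnc, 2.95, and Prelp, 3.02) and 1 lower (Fbn1, -2.41) of 15. None of the 9 receptors passed. Over all genes, 6.45% were higher and 6.18% lower. Apart from Adamts14 and Lama3, the calls named here were each lost in 2 to 5 of 13 alternatives.

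In grafts, the tested collagen genes shifted upward with ATO. Of 44 members 27 passed the filter, and 15 were higher, against 7.37% of all genes, and 0 lower, against 6.57%. All 27 had a positive log2 fold change, with a median of 1.55 against 0.04 over the 15468 genes tested. Without overlap between groups, 23 were higher, against 31.6% of all genes, and 0 lower, against 30.1%. The filter can keep a gene through the ATO group alone, so these counts are a description. Without it, 43 members were fitted with a median of 1.51. The low members so added went both ways, such as Col9a2 at -1.46 and Col22a1 at 2.36. With library totals alone as the scale, the median of all genes moved to 0.23 and 19 collagen genes passed, and the replicate block left 9 of the 15. Calls over all genes went from 2157 to 2320 and 1350 in these settings. Called genes included 6 of 9 fibrillar, 3 of 5 basement membrane, 2 of 3 beaded filament and 3 of 5 fibril-associated members and Col7a1.

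The firmest graft changes were those of Col4a1, Col4a2, the 3 collagen V chains, Col6a3 and Col12a1, which passed in all 11 alternatives. Col6a3, the long chain of collagen VI, rose from 12.8 and 13.7 CPM with PBS to 43.8 and 67.6 with ATO, a log2 fold change of 2.07 (SE 0.28, adjusted p = 0.00376 by edgeR's quasi-likelihood test). Col4a1 rose from 68.4 and 61.5 CPM to 142 and 239 (1.55, SE 0.25, adjusted p = 0.00728), and Col4a2 from 37.0 and 33.2 to 84.6 and 143 (1.70, SE 0.26, adjusted p = 0.00582). The PBS libraries of these genes lay close together and below both ATO libraries. Col5a1 (2.01, adjusted p = 0.0143), Col5a2 (1.77, adjusted p = 0.0107) and Col5a3 (1.79, adjusted p = 0.00979) rose as a group. Col12a1, a fibril-associated chain, rose from 6.47 and 2.55 CPM to 15.2 and 30.8 (2.36, SE 0.49, adjusted p = 0.0142).

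Collagens I and III rose too, but with more spread. Col1a1 stood at 116 and 43.0 CPM with PBS and 184 and 523 with ATO (log2 fold change 2.15, SE 0.48, adjusted p = 0.0181 by edgeR's quasi-likelihood test). Col1a2 stood at 160 and 63.5 against 213 and 440 CPM (1.54, SE 0.41, adjusted p = 0.0295), and Col3a1 at 174 and 93.6 against 181 and 612 CPM (1.57, SE 0.45, adjusted p = 0.0415). ATO replicate 2 was the highest for all 3, and PBS replicate 1 came near ATO replicate 1. With DESeq2 none of the 3 passed (adjusted p = 0.106, 0.182 and 0.231), nor with the replicate block (0.0514, 0.0647 and 0.118). Without PBS replicate 2, Col1a2 (0.0787) and Col3a1 (0.112) lost their calls, and without ATO replicate 2 Col3a1 fell to 0.42 (adjusted p = 0.318).

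The remaining graft calls each hung on single libraries. Col7a1 stood at 1.38 and 2.21 CPM with PBS and 12.4 and 6.17 with ATO (log2 fold change 2.36, adjusted p = 0.0154 by edgeR's quasi-likelihood test), lost without PBS replicate 1 (0.0725). Col6a1 rose by 1.22 (adjusted p = 0.0242), lost without PBS replicate 2 (0.105), while its partner Col6a2 had 0.86 (adjusted p = 0.115). Col15a1 rose by 0.89 (adjusted p = 0.0351), lost without PBS replicate 1 (0.0785) or 2 (0.130) and without ATO replicate 2 (0.196), and Col18a1 had 0.88 (adjusted p = 0.146). Fibril-associated Col20a1 and Col14a1 were each high in 1 ATO library. Col20a1 stood at 5.74 and 12.2 against 46.5 and 16.0 CPM (1.80, adjusted p = 0.0335), and without ATO replicate 1 had 0.82 (adjusted p = 0.153); its call was also lost without PBS replicate 1 (0.118). Col14a1, at 0.945 and 1.07 against 1.55 and 11.3 CPM (2.66, adjusted p = 0.0423), had 0.59 without ATO replicate 2 (adjusted p = 0.682), and lost its call without PBS replicate 1 (0.106) or 2 (0.0742). Col27a1 was high in every graft, at 151 and 216 CPM with PBS and 427 and 251 with ATO, and its log2 fold change of 0.89 (SE 0.27, adjusted p = 0.0505) passed in 6 of 11 alternatives, among them without PBS replicate 2 (0.0325) and without ATO replicate 2 (0.000509).

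Basement membrane partners rose beside collagen IV in grafts, 7 higher and 0 lower of 12. Over all genes, 7.37% were higher and 6.57% lower. Hspg2, the core of perlecan (2.34, adjusted p = 0.00376 by edgeR's quasi-likelihood test), held in all 11 alternatives, and the laminin chain Lama5 (2.27) and the linker Nid2 (2.10) each lost the call without PBS replicate 2. Fibrillar partners had 5 higher of 14, Fn1 (2.18, adjusted p = 0.00914) and Thbs2 (2.15, adjusted p = 0.00816) in all 11 alternatives and Tnc (2.03) in all but 4. Of 9 receptors 3 were higher, Ddr2 (1.89), Itga1 (1.64) and Itga10 (1.81), lost in 5, 3 and 4 alternatives. The modification list had 2 higher (P4ha2, 1.30, and P3h3, 1.53) and 1 lower (Ppib, -0.87) of 18, lost in 6, 4 and 2. Ltbp2 (2.68, held in all 11) was the 1 of 14 TGF-beta genes called, and 0 of 10 processing genes and 0 of 10 proteases and inhibitors passed. Other tissue moved as well: skeletal muscle markers summed to 259 and 40.3 CPM with PBS and 416 and 433 with ATO, with 3 of 10 called higher. Fibroblast markers summed to 99.99 and 73.3 CPM with PBS and 106 and 115 with ATO, with 2 of 8 higher and Tcf21 at 0 throughout, and macrophage markers lay between 682 and 906 CPM with PBS and between 347 and 401 with ATO, with 4 of 8 lower. Endothelial markers summed to 189 and 158 CPM with PBS and 222 and 295 with ATO, with 1 higher and 1 lower of 10. Thymocyte and T cell markers summed to 6489 and 5347 CPM against 4326 and 3477, with 1 higher and 2 lower of 10, and adipocyte markers to 114 and 142 against 81.7 and 64.4, with 1 of 7 lower. The part of these tissues, or of the mitochondrial share, in the collagen rise was not tested.

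In U937 cells, a line without fibroblasts, most of the measurable collagen genes were also higher with ATO. There was 1 library per group, so there is no test, and intervals cover counting error only (95%, Clopper-Pearson). Of 44 members 13 had a mean of at least 1 CPM, and 11 of these were higher by 2-fold or more on the log2(CPM + 1) scale, against 15.3% of 13722 genes, and 0 lower, against 8.53%. The median log2 ratio was 1.94 over the 13 and 0.13 over all. COL6A3, COL11A2 and COL23A1 (6 and 41 reads) reached that mean only through the ATO library. Without a minimum level, 14 of 37 members with reads were higher by 2-fold, against 2360 of 27856 genes. The median was 0.38 over these members and 0.09 over all genes. Of all 44 members, 24 had fewer than 10 reads in both libraries.

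COL9A2, a fibril-associated chain of cartilage, carried most of the signal, with 1756 reads in PBS and 6291 in ATO, a CPM ratio of 3.89 (3.69 to 4.11). COL9A3 had 200 and 494 reads (2.68, 2.27 to 3.18), but shares 155 exon bases with TCFL5 on the other strand. COL7A1 had 106 and 605 reads (6.20, 5.04 to 7.69). These 3 were higher with ATO by more than counting error. Of the fibrillar chains, COL1A1 had 43 and 406 reads (10.3, 7.48 to 14.4), COL11A2 14 and 208 (16.1, 9.40 to 30.0), and COL5A2 32 and 88 (2.99, 1.97 to 4.63). COL3A1 had 13 and 8 reads, and COL1A2, the partner chain of COL1A1, had 0 reads in both libraries. COL27A1 had 338 and 322 reads (1.03, 0.886 to 1.21) and did not differ beyond counting error.

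Collagen IV chains parted in U937: COL4A1 had 61 and 262 reads (4.67, 3.52 to 6.27), COL4A2 532 and 431 (0.880, 0.773 to 1.00). COL15A1 had 37 and 255 reads (7.49, 5.29 to 10.9), and COL18A1 84 and 239 (3.09, 2.40 to 4.01), although 18.5% of its exon bases overlap SLC19A1 on the other strand. COL6A3 had 2 and 301 reads, a ratio of 163 with an interval from 44.9 to 1356. Of 10 human fibroblast markers, PDGFRA had 1 and 0 reads, DCN 0 and 1 and LUM 6 and 2, while PDGFRB went from 14 to 141 reads and TWIST2 from 233 to 112. The list summed to 14.4 and 15.9 CPM, with 1 gene higher and 0 lower by 2-fold among the 2 that reached the minimum level, and its part in the collagen values was not tested. Myeloid markers summed to 1103 CPM with PBS and 480 with ATO, with 4 of 9 measured genes lower and 1 higher, and MPO at 7 and 14 reads. Of the collagen lists, basement membrane partners had 4 of 6 higher and modification genes 4 of 13 lower by 2-fold. Over all measured genes, 15.3% were higher and 8.53% lower. Fibrillar partners had 2 higher and 1 lower of 4, TGF-beta genes 3 higher of 12, processing genes 1 higher of 5, proteases and inhibitors 1 higher of 5 and receptors 1 lower of 4.

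**Figure D5:**
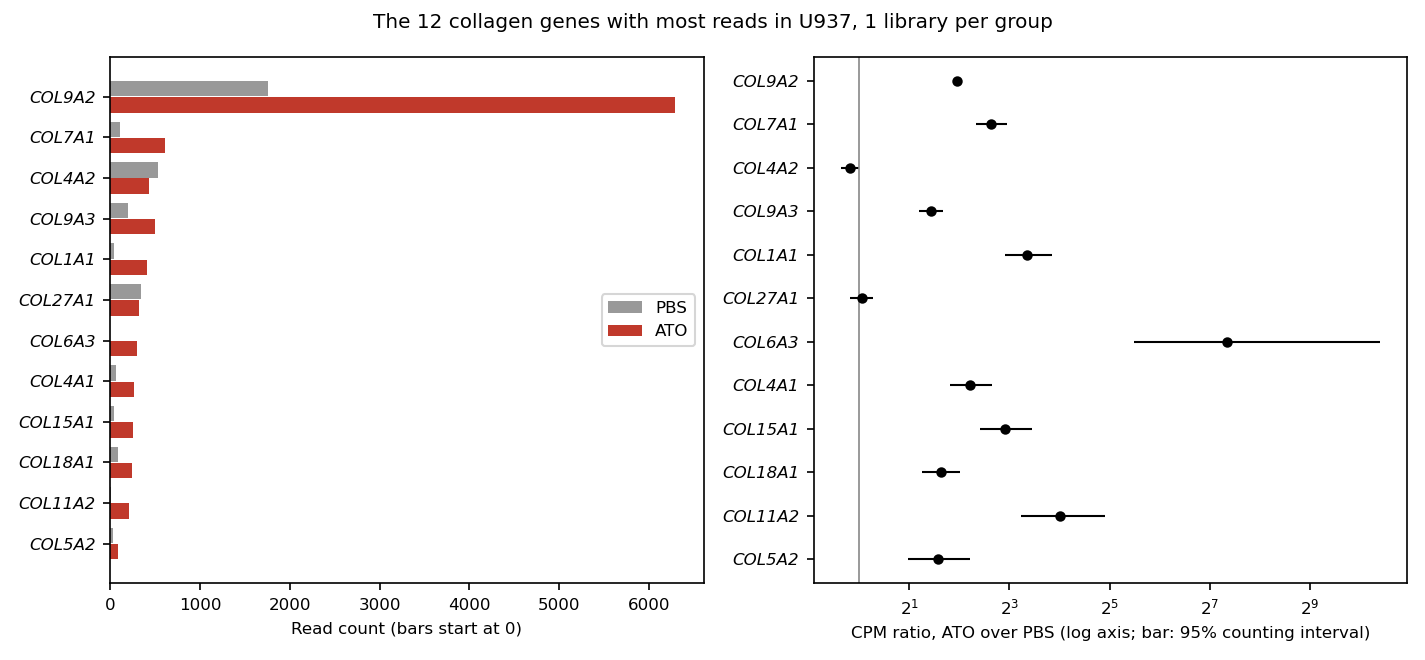
Read counts with PBS and ATO (left; x axis from 0) and CPM ratios of ATO over PBS with 95% counting intervals (right; log axis) of the 12 collagen genes with most reads in U937 (y axis), 1 library per group. COL4A2 and COL27A1 lie at ratios of 0.880 and 1.03, and the other 10 lie above 1.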

How the data were processed

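RNA was measured in 15 libraries. Per the labels' protocols, extraction used TRIzol and the library kit was SMARTer mRNA-Seq. Their text holds a culture passage with dexamethasone that does not describe tissue, so how far it applies is not known. The submitters' processing notes name FastQC 0.10.1, cutadapt 1.9.1, HISAT2 2.0.1 and GRCm38, also for the human samples. The counting program and its use of strand are not given in the sources used here. Each system has 1 table with unnormalised read counts per gene as the authors deposited them. The deposited FPKM values beside them were used only to check totals, and the deposited gene sizes in exonic bases gave levels per length. Positions in the W/W table matched GRCm38 for 99.4% of genes. The C57 table matched in 2.83%, so its build is another and no C57 coordinate is printed.

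Counts were filtered with filterByExpr, scaled by TMM and tested with edgeR 4.0.16 (R 4.3.3) by its quasi-likelihood test with Benjamini-Hochberg adjustment over all genes. The 9 W/W libraries were fitted together as 3 groups, and the 4 grafts alone. U937 values are CPM ratios, with a pseudocount of 1 on the log2 scale. A group at 0 was given a floor of 3 reads per library. Alternatives were DESeq2 1.42.0, limma-voom (limma 3.58.1), RLE factors, library totals alone, no filter, a replicate block, only the compared groups and each replicate left out. A crossed block in grafts was added after seeing the data. On simulated data with known changes, 19.1% of changed genes were recovered in the regressing against water design and 65.6% in the graft design. False calls were 0 in the first design and 10 in the second, 7.35% of the calls there.

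The collagen genes, pathway lists and marker lists were chosen with earlier results of these data known. Named in every mouse comparison were 12 chains of collagens I, III, IV, V, VI, XV and XVIII, then other collagen genes past the threshold, up to 15 per comparison by size of change. Up to 3 called genes were named per list, and in U937 the 12 collagen genes with most reads. Genes named outside this rule were chosen after their values were seen. They are COL1A2, COL3A1, COL23A1, single marker genes of fibroblasts and myeloid cells, and the neighbours of Col27a1. Uncalled values of Col7a1, Col11a1 and Col27a1 were also chosen in this way. A called gene of these lists is not reported here.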

Additional observations from a re-analysis of the deposited data

Results flagged for a closer look

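Each result here was singled out because the difference from the same water group was unlike in the 2 ATO groups. The water level cancels, so these are the regressing against progressing values given above, by edgeR's quasi-likelihood test over all genes. ATO and outcome cannot be told apart against water, so no effect of ATO is measured here. For 8 collagen genes the difference was negative: Col1a1 at -3.96, Col1a2 at -3.31, Col3a1 at -3.60, Col5a2 at -1.92, Col27a1 at -3.39, Col4a1 at -1.76, Col8a1 at -3.61 and Col26a1 at -7.08 on the log2 scale. The last is a fitted value against 3 libraries at 0 reads, which depends on the prior count and gives no size. For Col9a3 the difference was 2.67. Collagen I and III genes lay below water in regressing and not in progressing samples, whereas Col27a1 lay above water in both, and far more in progressing ones. No cause was tested.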

How the results depend on the processing

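The collagen calls, like those over all genes, depended on the method in the W/W comparisons. Regressing against water, 4 became 9 with DESeq2, 9 without a filter and 2 with only the compared groups, and 0 to 6 when 1 replicate was left out. Over all genes, 1396 calls became 3354, 2689 and 1734 in these settings, and 60 to 1190. Progressing against water, 2 became 5 with DESeq2, 5 without a filter, 1 with limma-voom and 1 with only the compared groups, and 1 to 4 with a replicate left out. Over all genes, 2157 calls became 3733, 3594, 1647 and 882 in these settings, and 907 to 2557. Regressing against progressing, 9 became 14 without a filter and 0 to 8 with a replicate left out. Over all genes, 2289 calls became 3621, and 177 to 2000. In grafts, 15 became 11 to 18 with a replicate left out. In U937 the 11 higher genes stayed 11 with a pseudocount of 0.5. Without a minimum level they were 14 of 37, against 2360 of 27856 genes. The cause was not tested.

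Same-numbered W/W libraries had correlations of deviations from -0.13 to 0.14, and differently numbered ones from -0.17 to 0.18. Whether the numbers mark a shared animal, litter or batch cannot be told from these values. With the replicate block the collagen calls were 5, 2 and 9 in the W/W comparisons, where calls over all genes were 956, 1405 and 1597. In grafts the collagen calls were 9, and calls over all genes fell from 2157 to 1350. The 9 calls of regressing against progressing no longer held Col9a3. In grafts, same-numbered libraries correlated at -0.13 and crossed ones at 0.13. With 2 libraries per group these are mirror values by construction and tell nothing of pairing. A crossed block gave 22 collagen calls and 3298 over all genes. With the block, regressing against progressing, Col6a1 (-0.014) and Col6a2 (-0.0078) turned sign, as they did without regressing replicate 3. With 1 replicate left out, Col6a1 ranged from -0.52 to 0.70 and Col6a2 from -0.65 to 0.78. Col18a1, progressing against water, turned to 0.08 without water replicate 3 and 0.25 without progressing replicate 1, in a range from -0.60 to 0.25.

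Over all genes, DESeq2 called 3354 against 1396, 3733 against 2157 and 4121 against 2289 in the W/W comparisons. No filter gave 2689, 3594 and 3621, and 3274 in grafts. With only the compared groups progressing against water gave 882, and with 1 replicate left out the counts went as low as 60, 907 and 177, and 685 in grafts. Library totals alone moved the median log2 fold change of all genes from -0.11 to 0.09 regressing against water, from -0.07 to 0.13 regressing against progressing and from 0.04 to 0.23 in grafts, and the split of higher against lower from 568 and 828 to 645 and 647 (regressing against water) and from 1140 and 1017 to 1800 and 520 (grafts).
Depth limits the lowest chains: 7 W/W and 17 graft members were not tested, and 24 U937 members had under 10 reads.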
